A study of Mus musculus with 8 samples.

Results

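Cluster 5, 1 of 7 cell populations sorted from mouse bone marrow, was compared with clusters 1, 2, 3, 4, 6 and 7 by RNA-seq, to find out which genes stood higher or lower in it than in the other 6 sorted libraries. Of the 49315 genes counted, 51 were left out and 49264 remained, and the 10589 of these with 50 or more counts in the cluster 5 library were described. Every library was labelled wild type, C57BL/6J, post-natal age of 6 weeks, bone marrow, and stromal cells derived from it, with no treatment. According to the study's methods, bone was crushed and digested with collagenase and red blood cells were burst in water. Cells negative for CD31, CD45 and Ter119, a red cell antigen, were then sorted. The study defined the clusters in a fraction that was also positive for Sca-1 and PDGFR-α. The gates of cluster 5 were positive for CD54 (ICAM-1) and negative for CD121b, CD24 and Ly-6C. The extraction label, in contrast, describes crushed marrow. An eighth library, of input cells, entered no comparison. Each population was 1 library, and how many mice it was pooled from is not given in the sources used here. Therefore no difference between populations could be tested, and the intervals below cover counting error only, since copies made by PCR were not separated from independent molecules.

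Red blood cell precursors make haemoglobin from globin chains and haem. Haem is built by a chain of enzymes that starts with ALAS2 in erythroid cells, iron is imported for it, and the programme is driven by transcription factors such as GATA1 and KLF1 and by the erythropoietin receptor. Neutrophils fill primary granules first and secondary granules, which contain the antimicrobial peptide of Camp, later. Bone marrow stroma comprises osteoblasts, reticular cells that support blood cells, and fibroblasts, and cartilage cells adjoin it in growing bones.

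The label of stromal cells was checked against defining genes, as RPKM (reads per kilobase of exon, scaled to the total of the counts kept). In cluster 5, the collagen gene Col1a1 had 8798 RPKM, the chemokine gene Cxcl12 73.8 and Pdgfra, a receptor of mesenchymal cells, 13.2. Genes of blood cells were present as well, with 204.9 RPKM for Alas2 and 5432 for Camp. Ptprc, which encodes CD45, had 3.16 RPKM and Pecam1, which encodes CD31, 6.75. The cluster 5 library thus held RNA of stromal genes together with that of red cell and neutrophil genes.

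The composition of the cluster 5 library differed from the others. Its counts summed to 12833648, and the other sorted libraries had between 24205863 (cluster 1) and 33238133 (cluster 7). The Lars2 locus held 22.85% of the counts of cluster 5 (Wilson binomial 95% interval 22.83% to 22.87%), mmu-mir-689-2 7.73% (7.71% to 7.74%) and the Rn18s-rs5 locus, which carries ribosomal RNA sequence, 4.25% (4.24% to 4.26%). Cluster 2 followed for the first 2 of these loci, with 7.38% and 2.44%. Haemoglobin genes held 5.21% (5.2% to 5.22%) in cluster 5, 1.10% and 1.01% in clusters 1 and 2, and 0.120% to 0.562% in clusters 3, 4, 6 and 7. Genes of the mitochondrial chromosome held 3.08% in cluster 5 and 0.356% to 1.15% in the other sorted libraries. These 51 genes were left out before levels were computed, which left 7299755 counts in cluster 5 and between 22230672 (cluster 2) and 32774309 (cluster 7) in the others. At this depth, 50 counts on a gene of 2 kb of exon corresponded to 3.42 RPKM in cluster 5 and to 0.763 to 1.12 in the others.

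**Figure D1:**
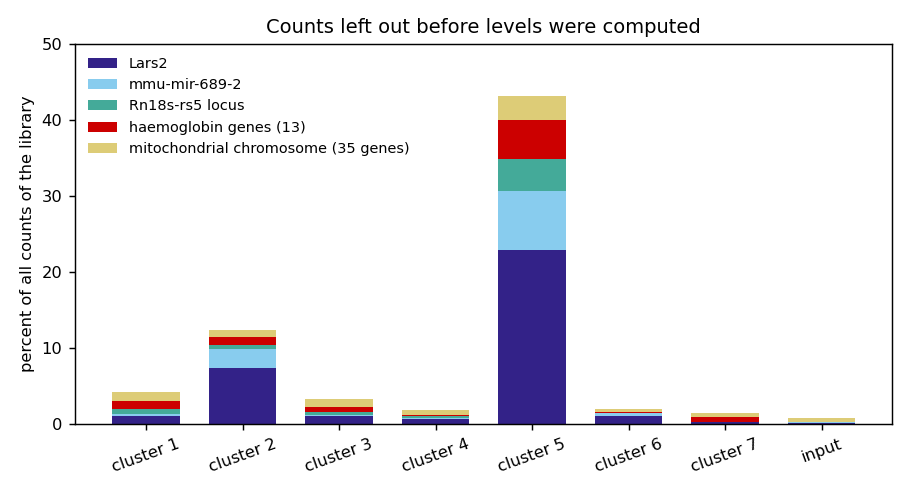
Percent of all counts of each of the 8 libraries (y axis) that fell on the 5 sets of genes left out before levels were computed. The column of cluster 5 reached 43.1%, that of cluster 2 reached 12.3%, and those of the other 6 libraries stayed at or below 4.16%.

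Differences are given on the scale of log2(RPKM + 1), which understates those of low genes, and a difference of 1 (2-fold) or more was counted. Of the 10589 genes, 126 (1.19%) were 2-fold or more above the highest of the other 6 libraries in cluster 5, and 522 (4.93%) were so above their median. In the opposite direction, 4 (0.0378%) were 2-fold or more below the lowest and 127 (1.20%) below the median. Genes under 50 counts in cluster 5 were not counted, which limits how many lower genes could be found, and because this minimum applied to cluster 5 alone, counts and medians over the genes that passed it are descriptions that lean towards higher genes. The median difference to the median of the others over all 10589 genes was 0.12. With edgeR's TMM factors it moved by -0.30 and with DESeq2's size factors by -0.21, so that the split of 522 higher and 127 lower genes became 266 and 412 with TMM factors and 316 and 271 with size factors. The balance of higher and lower genes therefore depended on the scaling.

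Of the 126 genes above each other library, 70 were protein-coding in RefSeq, and 22 of these belonged to the 5 erythroid lists. The next-highest library was cluster 2 for 55 of the 126 and cluster 1 for 34, with 18, 11, 5 and 3 for clusters 3, 7, 4 and 6. The lists were chosen when earlier results of these data were known, and their counts are a description of these libraries. In bulk libraries, a larger share of cells of one type and more RNA per cell cannot be told apart.

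**Figure D2:**
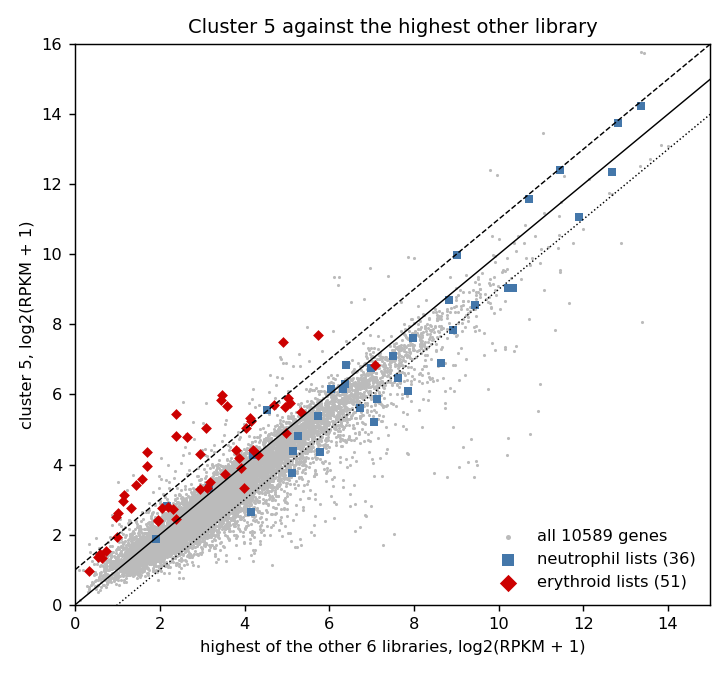
Level of each of the 10589 genes in cluster 5 (y axis) against its highest level in the other 6 sorted libraries (x axis), both as log2(RPKM + 1). The solid line marks equal levels and the broken lines a 2-fold difference; 22 of the 51 erythroid genes (diamonds) and 1 of the 36 neutrophil genes (squares) lie on or above the upper broken line.

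Erythroid genes stood higher in cluster 5. Of 53 members of the 5 lists, 51 had 50 or more counts, 22 were 2-fold or more above the highest other library, 32 were so above the median of the others, and none was 2-fold below the median, where the shares over all genes were 1.19%, 4.93% and 1.20%. In 46 of the 51, cluster 5 had the highest level of the 7 libraries, against 2160 of all 10589 genes. The median difference to the median of the others was 1.33, compared with 0.12 over all genes. With TMM factors or size factors 20 of the 51 were 2-fold above the highest other library, and 15 were with all genes kept in the total, where 1 was 2-fold below the median. Of all 10589 genes, 94, 100 and 56 were 2-fold above the highest in these settings, and 1337 were 2-fold below the median in the last. The summed RPKM of the lists was 1475 in cluster 5, and 579.9, 569.5, 458.1, 380.3, 359.9 and 554.5 in clusters 1, 2, 3, 4, 6 and 7. Alas2 was the most abundant member, and Icam4, an adhesion gene of red cells, was at 0 in all 7 libraries.

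Among the 8 enzymes of haem synthesis, 5, among them Alas2, Alad, Urod and Cpox, were 2-fold or more above every other library, and all 8 were highest in cluster 5. With TMM factors or size factors 3 of the 8 were 2-fold above every other library, and 2 were with all genes kept in the total. Of all 10589 genes, 94, 100 and 56 were in these settings. Alas2 (ENSMUSG00000025270, GRCm38 chromosome X, 150547375 to 150570638), which catalyses the first step in erythroid cells, had 204.9 RPKM in cluster 5 and 51.9, 46.5, 37.2, 22.4, 11.2 and 8.77 in clusters 7, 1, 2, 3, 6 and 4. It was 3.95-fold the level of cluster 7 (interval 3.77 to 4.13), on 3594 and 4089 counts. Cpox, at 32.1 RPKM and a difference of 1.01 to cluster 2, lay just inside the threshold. Fech, the last enzyme, which inserts iron, had 48.6 RPKM against 30.2 in cluster 7 (difference 0.67), and Uros and Ppox had differences of 0.57 and 0.33 to their highest other library.

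Genes of iron uptake were less uniform. Slc25a37, the mitochondrial iron importer mitoferrin, was 2.79-fold its next-highest level (2.54 to 3.06), with 18.8 RPKM in cluster 5 and 2.13 to 6.76 in the others. The transferrin receptor gene Tfrc had 13.9 RPKM, next to 14.1 in cluster 2 and 13.03 in cluster 6, and the interval of its ratio to cluster 2 included 1 (0.986, 0.9 to 1.08). Steap3, a reductase that prepares iron for import, had 9.04 RPKM in cluster 5 and up to 14.96 in cluster 4, and Snx3, a sorting nexin that recycles the receptor, had 114.8 and up to 134.2 in cluster 2. Only 1 of the 6 members was 2-fold above the highest other library, and the median difference to the median of the others was 0.52. It was 0.14 with TMM factors, 0.25 with size factors and -0.175 with all genes kept in the total. Over all genes this median was 0.12, and it was -0.18, -0.08 and -0.48 in those settings. In the last setting 0 of the 6 were 2-fold above the highest other library, and 1 was 2-fold below the median. Of all 10589 genes, 56 and 1337 were.

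In the list of the red cell membrane and its skeleton, 7 of 15 members with enough counts were 2-fold or more above each other library and all 15 were highest in cluster 5. Cldn13, a claudin gene that is found in red cell precursors of the mouse, had 42.9 RPKM in cluster 5 and 0.322 to 4.22 in the others, and its difference of 3.07 to the highest other library was the largest of the erythroid genes. Slc4a1, the anion exchanger band 3, had 26.7 RPKM and at most 5.21 elsewhere (ratio 5.13, 4.62 to 5.70). The blood group genes Rhag, Rhd, Kel and Ermap had ratios of 6.40, 4.22, 3.88 and 5.53 to their next-highest library. Sptb, a spectrin gene of the skeleton, was low everywhere, with 1.5 RPKM in cluster 5, and its difference of 0.70 on the log2(RPKM + 1) scale stood beside a ratio of 2.76.

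Of 9 regulators of the lineage, 5 (Klf1, Gata1, Epor, Gfi1b and Hemgn) were 2-fold or more above each other library and 7 were highest in cluster 5. With all genes kept in the total, 3 of the 9 were 2-fold above each other library, next to 56 of all 10589 genes. Klf1 (ENSMUSG00000054191, chromosome 8, 84901928 to 84905291), a zinc finger activator of globin and haem genes, had 19.7 RPKM in cluster 5 and 2.27, 1.998, 1.91, 1.83, 1.20 and 0.593 in clusters 3, 6, 2, 1, 7 and 4, with a ratio of 8.69 to the highest of these (6.77 to 11.2). Gata1, the master regulator of the lineage, had 4.66 RPKM and at most 0.941 in the others, Epor 6.82 and at most 1.19, Gfi1b, a repressor, 5.17 and at most 1.02, and the nuclear protein gene Hemgn 14.7 and at most 2.22. These low genes rested on 83, 99, 69 and 269 counts in cluster 5. Nfe2, a factor of red cells and platelets that is also found in myeloid cells, had 29.0 RPKM, slightly below the 30.5 of cluster 7 (ratio 0.953, 0.873 to 1.04), and Lmo2 had 18.4 and 18.9 in cluster 1 (0.972, 0.85 to 1.11).

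Of the genes of late maturation, 4 of 13 were 2-fold or more above each other library. Car2 and Car1 encode carbonic anhydrases. Car2 had 178.5 RPKM in cluster 5, 28.8 in cluster 2 (ratio 6.20, 5.83 to 6.59), 18.7 to 23.0 in clusters 1, 3, 6 and 7, and 3.87 in cluster 4, and Car1 had 56.1 and at most 9.95. Trim10, a ubiquitin ligase gene of terminal erythropoiesis, and Tspo2, a cholesterol-binding protein gene of red cells, had ratios of 6.48 and 5.75. Bpgm, which makes the effector that lowers the oxygen affinity of haemoglobin, lay just outside the threshold with a difference of 0.98 to cluster 2. Bnip3l, which clears mitochondria, had 44.5 RPKM against 39.4 in cluster 7 (difference 0.17). Cluster 4 was the lowest library for 19 of the 22 erythroid genes above the threshold, with 2 and 1 for clusters 6 and 7, and the next-highest library was cluster 2 for 9 of them, with 6, 5 and 2 for clusters 1, 3 and 7.

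**Figure D3:**
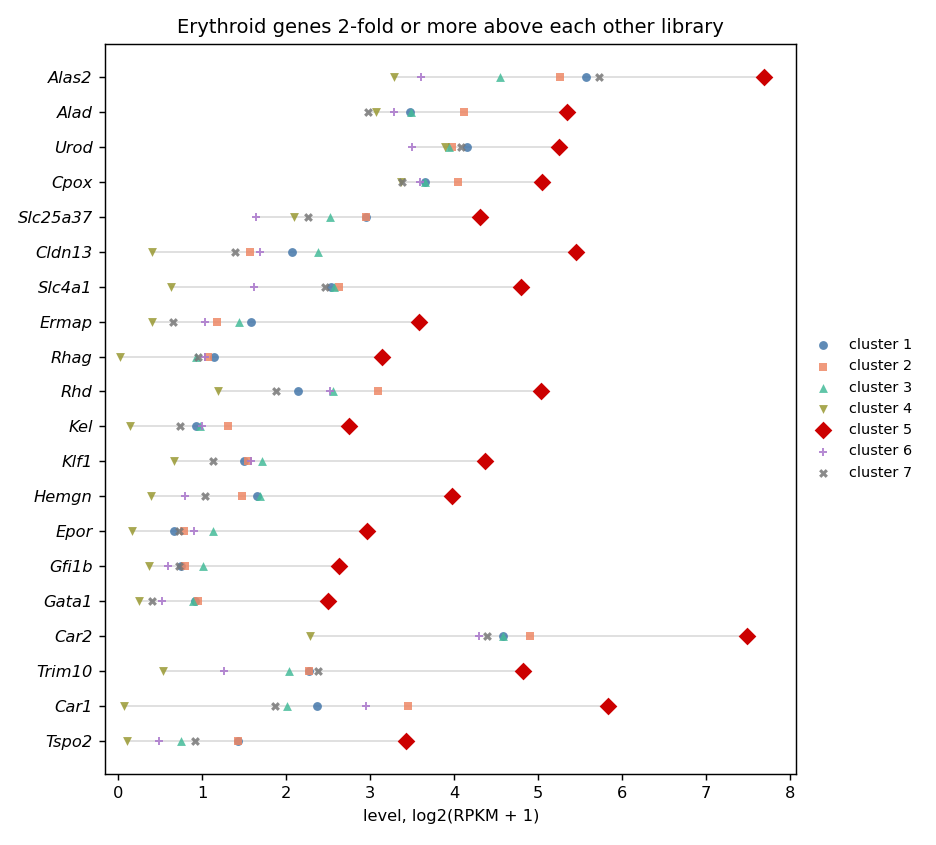
Levels of 20 of the 22 erythroid genes that were 2-fold or more above each other library, as log2(RPKM + 1) on the x axis, in the 7 sorted libraries, 1 symbol per library. Cluster 5 (large diamonds) is at the right end of every line and cluster 4 at the left end of 17.

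Promoters of erythroid genes were read from RefSeq (GRCm38.p6), because the binding sites of GATA factors often hold GATAA and those of KLF1 CCNCNCCC, and because these genes stood high together. Of the 53 genes, 33 were in the promoter table, each with 250 bases before the gene start and 50 after it. The letters GATAA, on either strand, were found in 16 of the 33 (48.5%), in 11 of the 14 (78.6%) whose gene was 2-fold above each other library, and in 25.4% of all 32851 promoters of the table. CCNCNCCC, which overlaps itself and other runs of C, was found in 22 of the 33 (66.7%), in 9 of the 14 (64.3%) and in 49.5% of all. No test was made, and a match of letters is not evidence of binding. The 150 bases before the start of an enzyme, a regulator, a receptor and a membrane gene of the group are shown from 5′ to 3′ on the strand of the gene, with every match in capitals. TTATC is GATAA read on the other strand. For Alas2 and Klf1 the deposited gene model starts upstream of the RefSeq start, inside the window shown.
Alas2, chrX:150547267-150547416, plus strand: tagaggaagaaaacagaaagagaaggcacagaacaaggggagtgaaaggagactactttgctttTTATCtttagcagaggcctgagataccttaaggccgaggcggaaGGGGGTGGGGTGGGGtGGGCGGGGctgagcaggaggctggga
Klf1, chr8:84901832-84901981, plus strand: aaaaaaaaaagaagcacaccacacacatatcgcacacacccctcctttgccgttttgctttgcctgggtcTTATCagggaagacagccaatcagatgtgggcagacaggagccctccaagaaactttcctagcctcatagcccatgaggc
Epor, chr9:21963577-21963726, minus strand: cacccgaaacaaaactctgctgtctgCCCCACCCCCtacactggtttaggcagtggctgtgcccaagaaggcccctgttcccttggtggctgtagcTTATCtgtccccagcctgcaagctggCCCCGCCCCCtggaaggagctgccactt
Rhag, chr17:40810999-40811148, plus strand: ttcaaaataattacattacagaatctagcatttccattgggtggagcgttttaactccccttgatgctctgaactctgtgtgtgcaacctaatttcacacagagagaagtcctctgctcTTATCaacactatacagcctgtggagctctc
All 4 windows held 1 match to GATAA, on the strand opposite to the gene, and the windows of Alas2 and Epor held 4 matches each to CCNCNCCC, some of which overlap, whereas those of Klf1 and Rhag held none.

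Neutrophil genes were high in cluster 5 too, but most were not above each of the others. Of 37 members of the 4 lists, 36 had 50 or more counts and 14 were 2-fold or more above the median of the other 6, where 4.93% of all genes were. Only 1, Stfa2l1, a stefin gene with near-identical neighbours that can share reads, was 2-fold above the highest, against 1.19% of all genes. The median difference to the median of the others was 0.79, next to 0.12 over all genes, and it was 0.48 with TMM factors, where 6 of the 36 were 2-fold above the median and none above the highest. With all genes kept in the total the median was 0.15 and 0 of the 36 were 2-fold above the median. Over all genes, the medians in these settings were -0.18 and -0.48, and 266 and 155 of 10589 were 2-fold above the median. The summed RPKM was 53574 in cluster 5, 39504 in cluster 7, and 18276, 22166, 13775, 22857 and 19729 in clusters 1, 2, 3, 4 and 6. S100a9 was the most abundant gene, with 19398 RPKM.

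Within these lists the place of cluster 5 against cluster 7 varied. Camp (ENSMUSG00000038357, chromosome 9, 109847379 to 109849617), a secondary granule gene, had 5432 RPKM in cluster 5 and 2796, 1910, 1878, 1498, 1444 and 1326 in clusters 7, 2, 4, 6, 1 and 3. The ratio of 1.94 to cluster 7 (1.92 to 1.97) gave a difference of 0.96, just under 2-fold. S100a8, S100a9 and Retnlg, genes of mature neutrophils, showed ratios of 1.91, 1.85 and 1.81 to cluster 7, their next-highest library. Ngp and Ltf, secondary granule genes as well, were below cluster 7, with 5211 against 6507 RPKM for Ngp and 527.5 against 1197 for Ltf, which encodes lactoferrin. The primary granule genes Mpo, Elane and Ctsg, made at an earlier stage, had 119.0, 228.3 and 47.6 RPKM in cluster 5 and 399.6, 484.3 and 105.5 in cluster 7. None of the 5 primary granule genes was 2-fold above the median of the others, and their median difference of 0.28 became -0.04 with TMM factors. Over all genes the median difference of 0.12 became -0.18. Cxcr2 and Csf3r, receptors for a chemokine and for the growth factor of neutrophils, had ratios of 0.318 and 0.371 to cluster 7.

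Of 15 osteoblast genes with enough counts, 7 were 2-fold above the median of the other 6, against 4.93% of all genes, and none was above the highest by that much. Bglap, which encodes osteocalcin, had 8962 RPKM in cluster 5, below clusters 3 and 6 (14488 and 11244) and above cluster 2 (3621), but 279.6, 265.1 and 193.7 in clusters 7, 1 and 4. Ifitm5, a gene of bone-forming cells, had 88.6 RPKM in cluster 5 and 171.0, 159.9 and 46.4 in clusters 6, 3 and 2, against 3.10 to 5.66 in the other libraries. Dmp1, a matrix gene of osteocytes, showed the same 4 libraries on top, with 67.2 RPKM in cluster 5 and 422.7, 209.8 and 40.9 in clusters 6, 3 and 2. Bglap shares much of its sequence with Bglap2 and Bglap3, so that reads may be split between them. Col1a1 (ENSMUSG00000001506, chromosome 11, 94936224 to 94953042) was second to cluster 6, with 8798 RPKM against 16258. Alpl, the alkaline phosphatase of mineralising cells, and Ibsp, which encodes bone sialoprotein, did not stand high in cluster 5, which ranked 5 and 6 of 7 with 87.5 and 386.1 RPKM against 411.7 and 3254 in cluster 6. With TMM factors 4 of the 15 were 2-fold above the median, with size factors 7, and 3 with all genes kept in the total. Of all 10589 genes, 266, 316 and 155 were. Osteoblast genes took 13.8% of the remaining counts in cluster 5, compared with 25.5% and 16.2% in clusters 6 and 3 and 6.64% to 9.37% elsewhere.

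Cartilage genes were low in cluster 5 against clusters 2, 4 and 6. They held 0.774% of the remaining counts, next to 0.565% and 0.908% in clusters 1 and 7 and 1.80% in cluster 3, and 9.72%, 3.84% and 10.2% in clusters 2, 4 and 6. Of 12 chondrocyte genes with enough counts, 7 were 2-fold or more below the median of the others, none was above it by that much, and the median difference was -1.10, compared with 0.12 over all genes and a share of 1.20% of all genes 2-fold below. With TMM factors or size factors 9 were 2-fold below, and 11 with all genes kept in the total. Of all 10589 genes, 412, 271 and 1337 were 2-fold below with TMM factors, size factors and all genes kept in the total. Col2a1 (ENSMUSG00000022483, chromosome 15, 97975602 to 98004695), the main collagen of cartilage, had 267.1 RPKM in cluster 5, 10743, 9819 and 3100 in clusters 6, 2 and 4, and 199.9, 187.3 and 138.4 in clusters 1, 7 and 3. Cluster 5 was thus close to clusters 1, 3 and 7, and its difference of -1.56 to the median of the others turned to 0.42 when cluster 2 or cluster 6 was left out. Matn3 and Col9a3, matrix genes of cartilage, had 16.1 and 28.4 RPKM in cluster 5, 705.9 and 1696 in cluster 2, and 10.4 and 25.5 in cluster 1. Acan, the main proteoglycan, had 12.6 RPKM against 327.5 in cluster 2 and 8.90 in cluster 1. Matn1 had 5 counts. Prg4, a lubricant gene of the joint surface, was lowest in cluster 5, with 229.6 RPKM against 257.9 in cluster 2 and 2566 in cluster 3.

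Several fibroblast genes were low in cluster 5 against clusters 1, 3, 4 and 7. Of 14 genes of fibroblasts and tendon with enough counts, 5 (Gsn, Cd34, Clec3b, Mfap5 and Ly6a) were 2-fold or more below the median, and the median difference was -0.68, against 0.12 and 1.20% 2-fold below over all genes. With TMM factors or size factors 7 were 2-fold below, and 9 with all genes kept in the total, where the median was -1.40. Of all 10589 genes, 412 were 2-fold below with TMM factors and 271 with size factors. With all genes kept in the total 1337 were, and the median over all genes was -0.48. Gsn (ENSMUSG00000026879, chromosome 2, 35256380 to 35307892), an actin-severing protein gene that is abundant in fibroblasts, had 1274 RPKM in cluster 5, 7577, 7048, 5998 and 3235 in clusters 4, 1, 7 and 3, and 611.9 and 385.8 in clusters 2 and 6. Ly6a, which encodes Sca-1, had 153.0 RPKM, between 229.0 to 962.5 in clusters 1, 3, 4 and 7 and 89.3 and 5.07 in clusters 2 and 6. Compared with clusters 2 and 6 alone, the differences of Gsn and Ly6a were 1.39 and 2.72 in favour of cluster 5. The tendon genes Scx, Tnmd and Ogn had differences of -0.13, 0.37 and 0.98 to the median of the others.

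**Figure D4:**
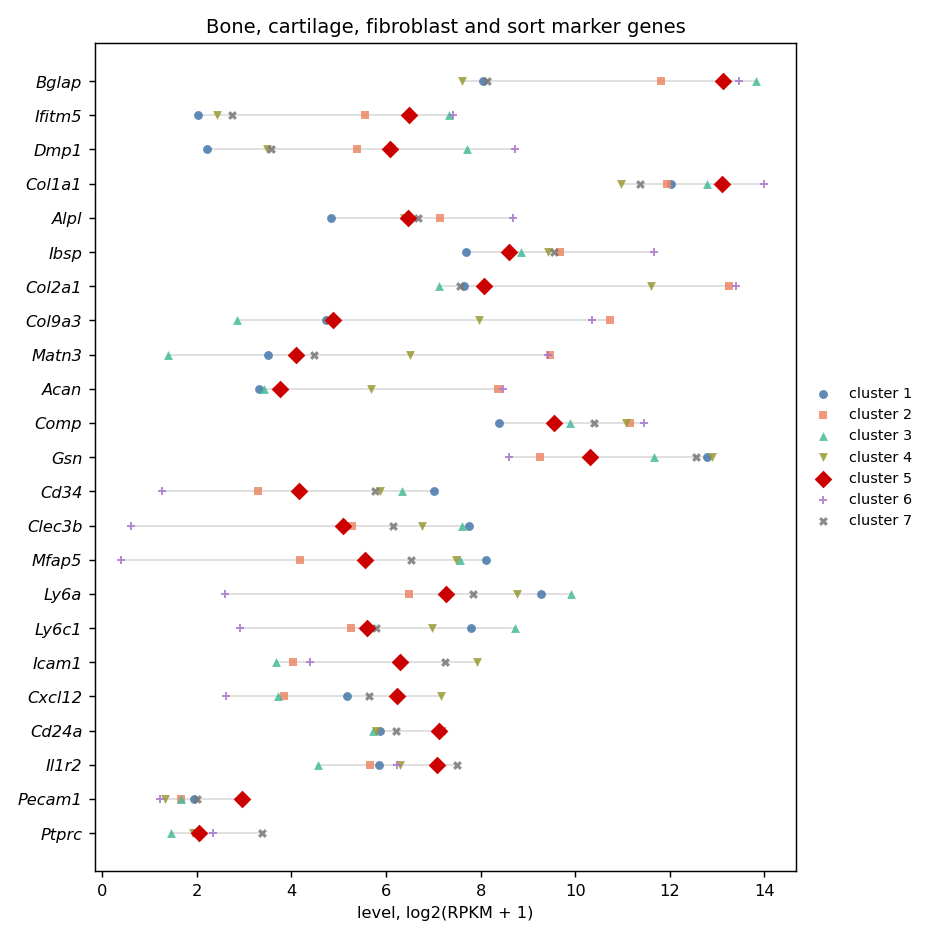
Levels of bone, cartilage, fibroblast and sort marker genes as log2(RPKM + 1) on the x axis in the 7 sorted libraries, 1 symbol per library. For Bglap, Ifitm5 and Dmp1 cluster 5 (large diamonds) lies with clusters 2, 3 and 6; for Col2a1 and Acan it lies with clusters 1, 3 and 7; for Gsn and Cd34 it lies between clusters 2 and 6 and the rest.

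Reticular cells that support blood cells were represented by 11 genes with enough counts. Of these, 1 was 2-fold above the median of the others, near the 4.93% of all genes, and the median difference was 0.49. This median was 0.23 with TMM factors and -0.05 with all genes kept in the total, next to -0.18 and -0.48 over all genes. In the latter setting 3 of the 11, and 1337 of all 10589 genes, were 2-fold below the median of the others. Cxcl12 had 73.8 RPKM in cluster 5, 141.8, 49.2 and 34.9 in clusters 4, 7 and 1, and 5.14 to 13.4 in clusters 2, 3 and 6. Lepr, the leptin receptor gene of these cells, had 8.14 RPKM and ranked behind clusters 7 (12.6) and 4 (11.1). Kitl, which encodes stem cell factor, was highest in cluster 5 by a small margin, with 6.46 RPKM and 5.59 in cluster 1 (ratio 1.16, 1.0 to 1.33).

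Endothelial genes were highest in cluster 5 for 9 of 11 members with enough counts, at low levels, with a summed RPKM of 77.5 against 11.1 to 47.98 in the others. Over all genes cluster 5 was highest for 2160 of 10589. Cldn5, a tight junction gene, had 18.1 RPKM and at most 7.60 in cluster 3 (ratio 2.38, 1.97 to 2.88), and Cdh5, the adhesion gene VE-cadherin, 4.37 and at most 1.41 in cluster 3 (3.09, 2.43 to 3.91). Both were 2-fold above the highest other library, but neither was with TMM factors, size factors or all genes kept in the total. The median difference of the list was 0.80 to the median of the others and 0.42 to the highest other library. With TMM factors these values were 0.51 and 0.27 (over all genes -0.18 and -0.64), and with all genes kept in the total 0.20 and -0.06. In the last setting 1 of the 11 was 2-fold above the median, compared with 3 before, and the values over all genes were -0.48 and -0.95. Pecam1, the gene of the CD31 gate, had 6.75 RPKM in cluster 5 and 1.34 to 3.01 in the others. Tek, a receptor of endothelial cells, was an exception with 1.74 RPKM, below 5.54 in cluster 1.

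The genes of the other antigens used for sorting did not all follow the gates of cluster 5. Icam1 (ENSMUSG00000037405, chromosome 9, 21015985 to 21028817), which encodes CD54, had 78.2 RPKM in cluster 5, 240.9, 151.7 and 77.2 in clusters 4, 7 and 1, and 11.8 to 20.04 in clusters 2, 3 and 6. Cd24a had 137.9 RPKM in cluster 5 and stood with clusters 2 (143.6) and 6 (139.7), above 51.6 to 73.3 in the others, although cluster 5 was sorted as CD24-negative. Il1r2, which encodes CD121b and is also a neutrophil gene, had 134.8 RPKM and was second to cluster 7 (179.8). Ly6c1 was low with 47.7 RPKM against 423.6 in cluster 3 and 220.0 in cluster 1, whereas Ly6c2, the form of myeloid cells, had 96.5 and was second to cluster 7 with 117.4. Ptprc had 3.16 RPKM in cluster 5, within the 1.75 to 4.09 of clusters 1, 2, 3, 4 and 6 and below 9.39 in cluster 7. Messenger RNA in a bulk library does not give the antigen on the sorted cells.

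Other blood lineages are read against the 4.93% of all genes that were 2-fold above the median. Macrophage genes had 4 of 13 members above it by 2-fold, and none above the highest other library by 2-fold. Among the 4 were the complement genes C1qa, C1qb and C1qc, with 9.75, 17.1 and 8.80 RPKM in cluster 5 and 7.10, 16.2 and 6.23 in cluster 7. The summed RPKM of the macrophage list was 317.6 in cluster 5, between 84.1 in cluster 2 and 434.6 in cluster 4. In the platelet list, 2 of 5 (Ppbp and Pf4, chemokines of platelets) were 2-fold above the median. None of 9 B lineage, 4 plasma cell, 2 T and NK, 6 dendritic cell and 3 osteoclast genes with enough counts was 2-fold above or below the median. With all genes kept in the total, 1 of these B lineage genes and 1 of the plasma cell genes were 2-fold below it, as were 1337 of all 10589 genes. Among mast cell, basophil and eosinophil genes, Prg2, the major basic protein of eosinophils, had 112.1 RPKM in cluster 5 and at most 38.4 in cluster 6 (ratio 2.92, 2.65 to 3.22). Prg2 stayed 2-fold above the median, but not above the highest library, with TMM factors or size factors. Epx and Ear1, also eosinophil genes of that list, had 13 and 14 counts. Fabp4 and Adipoq were the 2 of 5 adipocyte genes that were 2-fold above the median, and 3 of 7 genes of skeletal muscle (Acta1, Mylpf and Atp2a1) and none of 10 pericyte and smooth muscle genes were 2-fold above it. With all genes kept in the total, 0 adipocyte and 0 muscle genes, 1 macrophage gene and 1 platelet gene were, next to 155 of all 10589 genes.

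Of 14 cell cycle genes, Mki67 and Birc5 were 2-fold above the median, against 4.93% of all genes, and none was with TMM factors, size factors or all genes kept in the total. Mki67, the proliferation marker, had 14.9 RPKM in cluster 5 and at most 9.07 in cluster 2. Among 79 ribosomal protein genes 10 were 2-fold above the median, and 78 were above it by any amount, as were 6559 of all 10589 genes. With TMM factors 1 of the 79 was 2-fold above it, and 65 were above it by any amount, next to 3582 of all genes. With all genes kept in the total, 21 of the 79 and 1555 of all genes were above the median. None of 13 immediate early genes and none of 12 genes of hypoxia and glycolysis were 2-fold away from the median. With TMM factors 2 and 1 of these were 2-fold below it, and 8 and 4 with all genes kept in the total. Of all 10589 genes, 412 and 1337 were 2-fold below the median in those settings. One heat shock gene of 10, Hsp90aa1, was 2-fold above it, with 394.0 RPKM and at most 207.2 in cluster 1, and none was with TMM factors, size factors or all genes kept in the total. Of 11 interferon-stimulated genes, Isg15, a ubiquitin-like modifier, and Rsad2, an antiviral enzyme, were 2-fold above each other library, against 1.19% of all genes, and neither was with all genes kept in the total. Isg15 had 66.3 RPKM in cluster 5, 22.8 in cluster 1 and 3.23 in cluster 6, with the other libraries between 13.6 and 19.6. The other 9, such as Ifit1 with 3.51 RPKM, were not above the highest other library by 2-fold.

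**Figure D5:**
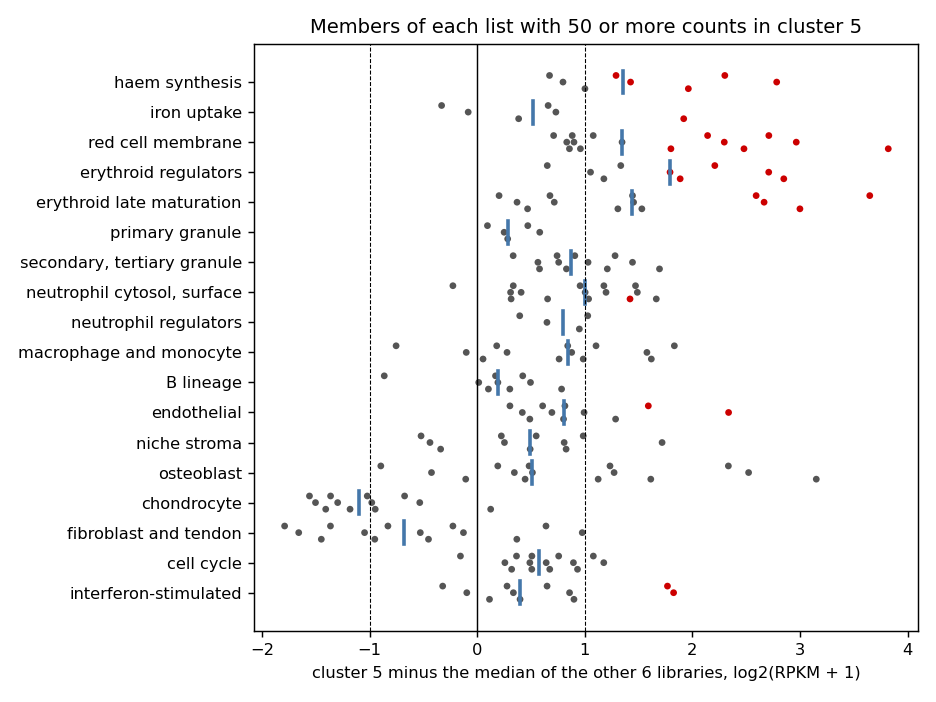
Difference of cluster 5 to the median of the other 6 sorted libraries on the log2(RPKM + 1) scale (x axis) for the members of 18 lists with 50 or more counts in cluster 5, 1 point per gene. Red points were 2-fold or more above each other library, blue bars are medians of the lists, and broken lines mark a 2-fold difference; the erythroid regulators have the highest median (1.79) and the chondrocyte genes the lowest (-1.10).

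Many of the largest differences of cluster 5 were of short noncoding loci. Of the 15 named genes with the largest difference to the highest other library, 9 were not protein-coding genes of RefSeq. The signal recognition particle RNA genes Rn7s1 and Rn7s2 had 652.1 and 649.8 RPKM in cluster 5, 67.6 and 74.4 in cluster 2, and 2.75 and 3.36 in cluster 7. AC156953.1, AC149599.1, CT025673.1 and AC027184.1, which are loci of 285 to 319 bases, 2 loci of 7SK, the small nuclear RNA that controls transcription elongation, and mmu-mir-2134-2 made up the other 7. Cluster 2 was the next-highest library for 8 of the 9 and cluster 4 for AC027184.1. Many of these loci have near-identical copies, so that the assignment of reads is uncertain, and a length of 57 bases, as for mmu-mir-2134-2, inflates RPKM. The protein-coding genes of the 15 included Cldn13, Klf1, Car2, Trim10 and Slc38a5, an amino acid transporter gene with 10.4 RPKM in cluster 5 and at most 1.005 in cluster 6. Of the 48 protein-coding genes above each other library that were in no erythroid list, Ctse, Ctf2, Tspan33, Blvrb and Prdx2 had ratios of 5.51, 7.64, 6.57, 2.66 and 2.19, and these 5 were chosen after their values were seen.

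Other classes of low or short genes stood high in the same library. Of 59 histone genes of the replication-dependent type, 11 had 50 or more counts. Of these, 4 were 2-fold above each other library, where 1.19% of all genes were. With all genes kept in the total 1 of the 11 was, next to 56 of all 10589 genes. The 991 olfactory receptor genes, a family of the nasal epithelium, had a summed RPKM of 97.6 in cluster 5 and 2.76 to 16.8 in the other sorted libraries, although none reached 50 counts and 546 had none. Genes that are protein-coding in RefSeq held 94.4% of the remaining counts in cluster 5, 96.7% in cluster 2 and 97.3% to 99% in the others. Of 93 small nucleolar RNA genes, 2 had enough counts and 1 was 2-fold above the median. The part of these differences in composition, and of the haemoglobin share, in the levels of the other genes was not tested. With only protein-coding genes counted and in the total, an alternative chosen after the data were seen, 80 genes were 2-fold above each other library, compared with the 70 protein-coding genes above, and 24 of them were erythroid.

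Cluster 5 was the lowest library for 898 of the 10589 genes, but seldom by 2-fold. Of the 15 with the lowest difference to the lowest other library, Pcolce2, Trim47, Gna12 and Galntl4 passed 2-fold. Pcolce2 (ENSMUSG00000015354, chromosome 9, 95637601 to 95698096), an enhancer of procollagen processing, had 11.9 RPKM in cluster 5 and 26.9, 39.8, 40.1, 86.6, 140.9 and 149.8 in clusters 7, 4, 1, 6, 3 and 2. Gna12, a G protein subunit gene, had 8.74 RPKM in cluster 5 and 19.4 to 25.4 in the others, which lay close together. Trim47 had 22.3 and 48.4 to 70.2, and Galntl4, a sugar transferase gene, 5.32 on 100 counts and 11.7 to 19.4. The other 11 had differences of -0.78 to -0.999 to the lowest other library. Nid2, a basement membrane gene, had 3.28 RPKM in cluster 5, 7.28 in cluster 3 and 96.7 in cluster 6, and Thbs3, Chrdl1, Vit, Angptl2 and Vwa1 had differences of -0.96, -0.999, -0.78, -0.81 and -0.90 to the lowest library. With TMM factors, 24 genes were 2-fold below every other library, 10 were with size factors and 123 with all genes kept in the total.

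Of the libraries taken alone, cluster 6 had the lowest correlation with cluster 5. Over the 10589 genes, 1973 were 2-fold or more higher and 304 lower in cluster 5 than in cluster 6, and Pearson's r across genes, which are not independent replicates, was 0.869. The median difference of all genes was 0.39 to cluster 6 and between -0.01 and 0.18 to the other libraries, so the split against cluster 6 holds this shift. With cluster 1, 516 were higher and 342 lower and r was 0.934, and with cluster 2, 667 and 362 with r of 0.929. Clusters 3, 4 and 7 had 987 and 315, 679 and 252, and 748 and 413 genes higher and lower, with r of 0.921, 0.929 and 0.911. All these values share the cluster 5 library and its depth.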

How the data were processed

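The deposited unit is raw counts for each Ensembl gene, with its exon length, from 1 library for each of clusters 1 to 7 and 1 of input cells. According to the submitters' processing notes and the Methods, TopHat2 and Partek 2.2 were used with mm9, whereas the deposited coordinates are those of GRCm38, since 96.2% of 23331 symbols started within 10 kb of their RefSeq GRCm38.p6 position. The counting tool and its use of strand are not given in the sources used here, so reads of overlapping and antisense genes cannot be told apart. Symbols came from the name table (32464 genes) or RefSeq positions within 100 bases (4387), and Ahsp was not matched.

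Lars2, mmu-mir-689-2, the Rn18s-rs5 locus, haemoglobin genes and mitochondrial genes were left out. RPKM was computed from the remaining counts and the deposited lengths, and log2(RPKM + 1) of cluster 5 was compared with the median, the highest and the lowest of the other 6 libraries, for genes with 50 or more counts in cluster 5. The input library entered no comparison. With 1 library per population no test was possible, and edgeR 4.0.16 and DESeq2 1.42.0 (R 4.3.3) gave scaling factors only. Ratios are of RPKM, with exact binomial 95% intervals of the counts. The members, the 35 gene lists and the thresholds were chosen with earlier results of these data known. Genes named are members of these lists and, in each direction, the 15 symbols with the largest difference to the highest or lowest other library, leaving out immunoglobulin and T cell receptor segments, pseudogenes and names starting with Gm or mt- or ending in Rik, which were counted only, and 5 further genes are named as chosen after their values were seen. Some genes of the lists are counted but not reported here by name. Alternatives changed the pseudocount, the scaling, the count filter, the fold, the depth and the libraries compared. Promoter sequences are those of RefSeq. Calculations were tested on simulated counts. Calculations were made with pandas 2.3.3, numpy 2.4.6 and scipy 1.17.1 in Python 3.11.15, and plots with matplotlib 3.10.9.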

Additional observations from a re-analysis of the deposited data

How the results depend on the processing

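Without replicates, stability could be judged only by alternative settings. Of 104 counts of genes recomputed under 13 alternatives, 61 stayed within 1.5 times and 43 did not, and of 312 values of 24 single genes, 177 moved by less than their counting interval, 129 by more, and 6 of genes reported 2-fold from the median changed sign. The count filters and the 4-fold threshold could not move the value of a single gene, so all their single-gene values are among the 177. The cause of the changes was not tested. In the following, higher and lower refer to 2-fold in cluster 5, first against the highest (or lowest) other library and then against the median, where the values reported were 126 and 522 higher, 4 and 127 lower, 22 and 32 erythroid, and 1 and 14 neutrophil genes. With TMM factors, the median counts were 266 higher and 412 lower, with 24 genes below the lowest, and 0 and 6 neutrophil genes. Size factors gave 316 higher and 271 lower than the median, 10 below the lowest, and 0 and 6 neutrophil genes. With all genes kept in the total, there were 56 and 155 higher, 123 and 1337 lower, 20 erythroid genes above the median, and 0 and 0 neutrophil genes. A pseudocount of 0.1 gave 892 above the median and 12 below the lowest. With no count minimum but an RPKM above 2 in 1 library, 603 and 1455 were higher and 19 and 261 lower, with 50 counts in any library 8 were below the lowest, and with 200 counts in cluster 5 there were 60 and 257 higher, 78 below the median and 0 neutrophil genes above the highest. A 4-fold threshold left 34 and 90 higher, 0 and 4 lower, 10 and 15 erythroid, and 0 and 0 neutrophil genes. Against clusters 2 and 6 only, 487 and 989 were higher and 165 and 249 lower, with 7 neutrophil genes above the highest. With protein-coding genes only, chosen after the data were seen, 80 were above the highest, compared with 70 protein-coding genes among the 126, and 3 of the 80 were neutrophil genes. The signs that changed among genes 2-fold from the median were those of Ifitm5 (-0.01), Cd24a (-0.038), Gsn (1.39) and Ly6a (2.72) against clusters 2 and 6 only, and of Col2a1, at 0.42 without cluster 2 and 0.42 without cluster 6. Mpo, which was not 2-fold from the median (0.25), also fell on the other side of it with TMM factors (-0.18), size factors (-0.05), all genes kept in the total (-0.52), without cluster 2 (-0.007) and against clusters 2 and 6 only (-0.35). Counts of erythroid genes above the highest stayed between 15 and 29 at a 2-fold threshold. No paired analysis was possible because the labels give 1 library to a population and number all of them 1. Depth limits low genes, since cluster 5 kept 7299755 counts.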
